A study of Mus musculus with 6 samples.

Results

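The genes described here are 46 genes of DNA replication and mitosis, taken by symbol from an RNA-seq table of 35275 mouse genes, and all 46 were found in it. They comprise 21 replication genes (the Mcm helicase, its loading and firing factors, polymerases, and the enzymes of deoxynucleotide supply), 3 regulators of S phase, and 22 mitosis genes (cyclins with Cdk1, mitotic kinases, kinesins, and factors of the spindle and of mitotic exit). They were picked by name and function, with no threshold on a measured value, though earlier results of these data were known. The tissue was epididymal fat, which lies next to the testis, of C57BL/6 males. The 3 KO samples came from mice labelled TfrcAKO, and the 3 control samples from mice labelled Tfrcfl/fl, in which Tfrc carries loxP sites. AKO is commonly read as adipocyte knockout, but the labels neither spell it out nor name the Cre driver. Both genotypes ate a 60% high-fat diet, begun when they were 2 months old and kept up over 10 weeks; tissue was taken when they had reached 4.5 months. The comparison asks how mRNAs of a fat depot differ where Tfrc, the receptor that brings transferrin-bound iron into cells, is deleted.

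Cells copy their genome once in each division. In G1 phase the origin recognition complex, Cdc6 and Cdt1 load the Mcm2-7 helicase onto origins, which is called licensing; in S phase Cdc45 and the GINS complex join it, and polymerases, their sliding clamp Pcna and DNA ligase build the new strands from deoxynucleotides made by ribonucleotide reductase. Cyclin B with Cdk1 then starts mitosis, Aurora and Polo-like kinases and kinesin motors build the spindle, and Cdc20 and Ube2c bring about exit through the anaphase-promoting complex. Mature adipocytes do not divide, and in the fat of obese mice dividing cells are known among macrophages, adipocyte progenitors and endothelial cells. E2F factors are known to act at promoters of many replication genes through E2F sites, while promoters of many mitotic genes carry a cell cycle homology region (CHR) near CCAAT boxes that NF-Y binds.

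To show this difference between the promoter types, 5 windows are printed, 2 of replication genes that fell in KO tissue (Mcm6, Rrm1), 2 of mitosis genes that fell (Cdk1, Ccnb2) and that of Cdc45, a replication gene that was not called. They were chosen after the values had been seen. Each runs 5′ to 3′ from 250 bases before the annotated start to the first 20 bases after it, in RefSeq's GRCm38.p6 annotation, which has the coordinates of the mm10 build of the expression table. Capitals mark matches to 3 motifs searched on both strands, namely an E2F type (TTCCCGC or TTGGCGC), the CHR (TTTGAA) and CCAAT. A match on the other strand shows as its reverse complement, ATTGG for CCAAT and TTCAAA for the CHR. No matches overlapped in these windows.
Mcm6 (chr1:128359686-128359955, minus strand): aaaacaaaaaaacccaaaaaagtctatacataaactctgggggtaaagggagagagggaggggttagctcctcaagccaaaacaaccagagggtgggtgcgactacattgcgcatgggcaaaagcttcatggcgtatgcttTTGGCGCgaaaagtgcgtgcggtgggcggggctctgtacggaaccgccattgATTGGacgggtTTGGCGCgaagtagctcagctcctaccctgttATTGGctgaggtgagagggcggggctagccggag
Rrm1 (chr7:102441445-102441714, plus strand): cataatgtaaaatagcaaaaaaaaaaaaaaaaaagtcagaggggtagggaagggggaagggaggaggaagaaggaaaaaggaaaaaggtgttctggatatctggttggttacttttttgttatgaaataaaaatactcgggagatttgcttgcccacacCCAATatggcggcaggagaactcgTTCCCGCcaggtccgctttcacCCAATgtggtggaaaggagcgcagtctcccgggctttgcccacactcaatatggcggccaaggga
Cdk1 (chr10:69352893-69353162, minus strand): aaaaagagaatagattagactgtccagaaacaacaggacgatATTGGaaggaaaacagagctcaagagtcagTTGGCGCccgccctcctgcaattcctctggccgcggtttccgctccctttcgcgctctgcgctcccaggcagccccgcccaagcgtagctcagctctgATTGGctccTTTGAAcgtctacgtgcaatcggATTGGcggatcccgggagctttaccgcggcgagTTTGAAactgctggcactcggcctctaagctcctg
Ccnb2 (chr9:70421535-70421804, minus strand): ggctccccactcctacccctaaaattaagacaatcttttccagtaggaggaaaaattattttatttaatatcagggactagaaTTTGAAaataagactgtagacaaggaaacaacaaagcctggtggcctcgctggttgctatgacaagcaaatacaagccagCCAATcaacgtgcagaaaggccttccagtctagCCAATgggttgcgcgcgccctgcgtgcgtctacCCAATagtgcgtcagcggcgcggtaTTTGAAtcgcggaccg
Cdc45 (chr16:18811953-18812222, minus strand): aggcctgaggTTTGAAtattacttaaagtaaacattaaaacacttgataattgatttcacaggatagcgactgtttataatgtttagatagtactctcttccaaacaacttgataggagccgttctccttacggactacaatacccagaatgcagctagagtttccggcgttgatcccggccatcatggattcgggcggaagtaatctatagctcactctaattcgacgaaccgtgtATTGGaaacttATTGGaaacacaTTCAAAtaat

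Positions below count from the annotated start as 0, negative before it. Mcm6 held E2F-type matches beginning at −109 and −46, the second between CCAAT matches at −57 and −14. Rrm1 held 1 E2F-type match at −67, also between CCAAT matches, at −91 and −45. Cdk1 held all 3 motifs, with an E2F-type match at −178, CHR matches at −71 and −15, and CCAAT matches at −208, −80 and −48. Ccnb2 held no E2F-type match, CHR matches at −167 and 4, and CCAAT matches at −87, −54 and −21, and Cdc45 held no E2F-type match, CHR matches at −240 and 10, and CCAAT matches at −13 and −2.

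A window of 300 bases (250 before and 50 after the start) was at hand for 37 of the 46 genes, 17 of them replication and 17 mitosis genes. Lig1, Mcm7, Fen1 and Uhrf1 had several windows, and a gene counted where any of its windows held a match. The replication genes thus had 21 windows and the mitosis genes 17. Not every window was set at the outermost annotated start of its gene, though the printed ones were. Those of E2f1, Cdc6, Aurka and Pola1 were set 466, 442, 316 and 232 bases inside the gene. The windows of Mcm7 were set 845 and 228 bases inside, and 1 of Lig1 2090 bases inside. An E2F-type match was present for 10 of 17 replication genes (58.8%) and 3 of 17 mitosis genes (17.6%), and for 13.8% of the 10117 tested genes with a window. Besides Cdc45 and Fen1, it was absent for Mcm2, Tk1, Tyms, Pcna and Rrm2. These last 2 had the largest log2 fold changes of the replication genes in KO tissue (−1.29 and −1.28). A CHR match was present for 3 of 17 replication genes (17.6%) and 12 of 17 mitosis genes (70.6%), and for 14.4% of the tested genes with a window. CCAAT was present for 10 of 17 replication genes and for 15 of 17 mitosis genes (88.2%), and for 42.3% of the tested genes. Over windows of all 27025 annotated genes the shares were 7.79% for the E2F type, 20.2% for the CHR and 41.1% for CCAAT. These are counts of letters in a window, with no test, and show neither binding nor a site in use. Only the exact letters were searched, so the lack of a match does not show that a gene lacks such a site.

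**Figure D1:**
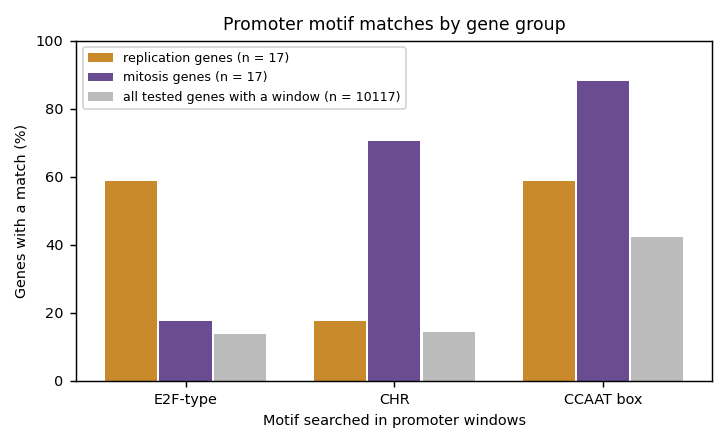
Share of genes with each motif in any of their promoter windows of 300 bases, in percent, for 17 replication genes, 17 mitosis genes and the 10117 tested genes with a window. The E2F type was present in 58.8% of replication genes against 17.6% of mitosis genes, and the CHR in 17.6% against 70.6%.

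The deposited values are FPKM (reads counted on a gene, scaled to its length in kilobases and to the reads of the library), from 25252839 to 30650624 gene-assigned reads per sample, so that 3 reads on a gene of 2 kb are worth 0.0489 to 0.0594 FPKM. Of the 35275 genes, 14383 reached 0.5 FPKM in at least 3 samples and were tested with limma on log2(FPKM + 0.5), the scale of all log2 fold changes below (KO over control, ± standard error), which understates the change of low genes. A gene is said to have fallen or risen where its two-sided p, adjusted by Benjamini-Hochberg over all tested genes, was under 0.05. Of all tested genes 21.6% fell and 21.9% rose, and their median log2 fold change was −0.03. Tfrc itself (ENSMUSG00000022797, chromosome 16, 32608920 to 32632794, plus strand) was at 7.10, 8.27 and 9.50 FPKM in KO replicates 1, 2 and 3, against 11.1, 13.2 and 11.9 FPKM in control replicates 1, 2 and 3, a log2 fold change of −0.52 ± 0.12 (limma adjusted p = 0.0147). The Tfrc value can also count exons outside the deleted part and cells other than adipocytes, so it does not measure how complete the deletion was.

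Genes of DNA replication and of mitosis were lower in KO than in control fat. Of the 45 members tested, 42 fell (93.3%), none rose, and 3 were not called; 21.6% of all tested genes fell. At an unadjusted limma p under 0.05 the counts were 43 lower and 0 higher. In 43 of the 45, all 3 KO values lay below all 3 control values, which held for 31.0% of all tested genes. The median log2 fold change was −1.02, and 23 members had fallen by more than 1, against 5.29% of all tested genes. The median member had in KO tissue 47.3% of its control level. Fen1, the flap endonuclease of lagging strands, was the member not tested. In these bulk samples, fewer cells of a type and less of an mRNA per cell cannot be told apart.

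**Figure D2:**
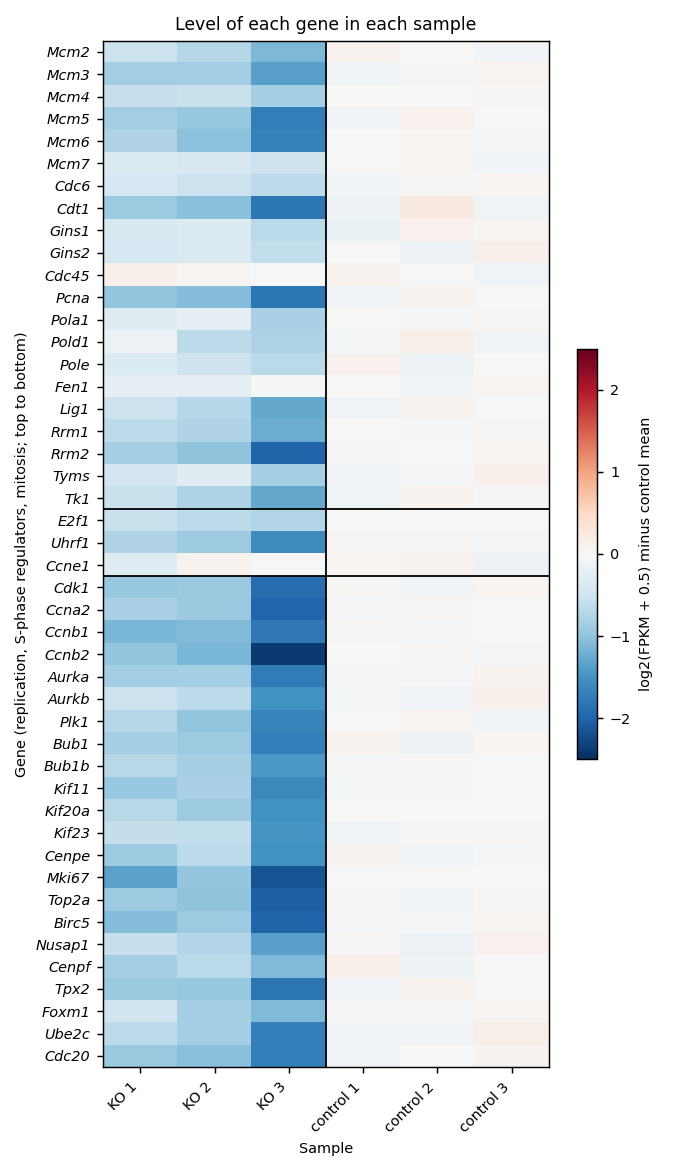
Level of each of the 46 genes in each sample as log2(FPKM + 0.5) minus the mean of the 3 control samples, with blue for lower and red for higher, and lines between replication genes, S-phase regulators and mitosis genes. The 3 KO columns are blue for most genes and deepest in KO 3, while Cdc45 and Ccne1 stay near white.

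The 3 KO samples were not alike. KO replicate 3 held the lowest KO value for 44 of the 46 genes, including 20 of 21 replication and all 22 mitosis genes. The mean log2 level of the mitosis genes was 1.76, 1.73 and 0.91 in KO replicates 1, 2 and 3, against 2.59, 2.57 and 2.64 in the control replicates. That of the replication genes was 2.30, 2.21 and 1.79 in KO samples, against 2.79, 2.85 and 2.84 in control samples. KO replicates 1 and 2 lay close together below the control samples, and KO replicate 3 lay a further step below. Without KO replicate 3, 41 members fell and the medians were −0.60 for replication and −0.86 for mitosis genes.

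Whether the samples came from 6 different mice is not in the labels, and p-values reflect only how these samples spread. Where the change had to exceed 1.5-fold (limma treat), no member was called (0 of 45, 24 lower at an unadjusted p under 0.05), and 56 of all tested genes were. Without control replicate 2, 30 members fell, and without control replicate 3, 29 did; replication genes then numbered 11 in each case, and calls over all genes 3371 and 3456 in place of 6253. In both cases Cdc6, Gins1, Pold1, Pole, Rrm2, Tyms, Ccna2, Ccnb2, Aurkb, Kif23 and Ube2c lost their call, as did Lig1 without control replicate 2, and Gins2 and Nusap1 without control replicate 3. Every log2 fold change of a called member stayed negative in these 2 fits.

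All 8 licensing genes fell, with a median log2 fold change of −0.91. Cdt1, which brings the Mcm helicase to origins (ENSMUSG00000006585, chromosome 8, 122568015 to 122573128, plus strand), was at 6.26, 5.71 and 3.15 FPKM in KO replicates 1, 2 and 3, against 11.2, 14.3 and 11.5 FPKM in control replicates 1, 2 and 3. Its lowest control value was well above its highest KO value, and its log2 fold change of −1.25 ± 0.24 was the largest of the licensing genes (limma adjusted p = 0.00878). Cdc6, the loading ATPase, was a low mRNA, at 0.727, 0.623 and 0.544 FPKM in KO samples and 1.06, 1.17 and 1.19 FPKM in control samples, and fell by 0.54 on the log2 scale.

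The 6 genes of the Mcm2-7 ring fell by different amounts. Mcm3 (ENSMUSG00000041859, chromosome 1, 20802968 to 20820312, minus strand) was at 6.70, 6.72 and 4.65 FPKM in KO samples, against 11.8, 13.0 and 13.4 FPKM in control samples (log2 fold change −1.03 ± 0.15, limma adjusted p = 0.00451). Mcm5 and Mcm6 fell further, by 1.18 and 1.15, and Mcm2 and Mcm4 less, by 0.79 and 0.66. Mcm7 (ENSMUSG00000029730, chromosome 5, 138164583 to 138172422, minus strand) moved least of the ring, at 8.62, 8.39 and 7.71 FPKM in KO samples against 11.2, 11.7 and 10.7 FPKM in control samples, and its groups still did not overlap (−0.42 ± 0.08, limma adjusted p = 0.00733).

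In the complex these proteins stand in equal number, and their mRNAs kept unequal shares of the summed Mcm2-7 FPKM. Mcm7 made up 24.2 ± 3.72% of the sum in KO samples and 17.2 ± 0.55% in control samples (SD, n = 3 each). Mcm6 made up 18.2 ± 2.81% in KO samples and 22.2 ± 0.30% in control samples. Mcm5 made up 12.9 ± 2.02% in KO samples and 16.3 ± 0.73% in control samples. Shares of KO and control samples did not overlap for 5 of the 6 genes, lower in KO for Mcm3, Mcm5 and Mcm6 and higher for Mcm4 and Mcm7, and overlapped for Mcm2. The share of Mcm7 was highest in KO replicate 3, at 28.5%. Exons of Mcm7 share 8.70% of their bases with Ap4m1 and Cops6 in GENCODE M21, and the strand setting of the counting is not given in the sources used here. Such overlap was found for 13 members, over 20% of exonic bases for 4 of them. Ccna2 shares 12.5% with Exosc9, Cdc45 5.96% with Ufd1 and Lig1 5.79% with Zswim9.

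**Figure D3:**
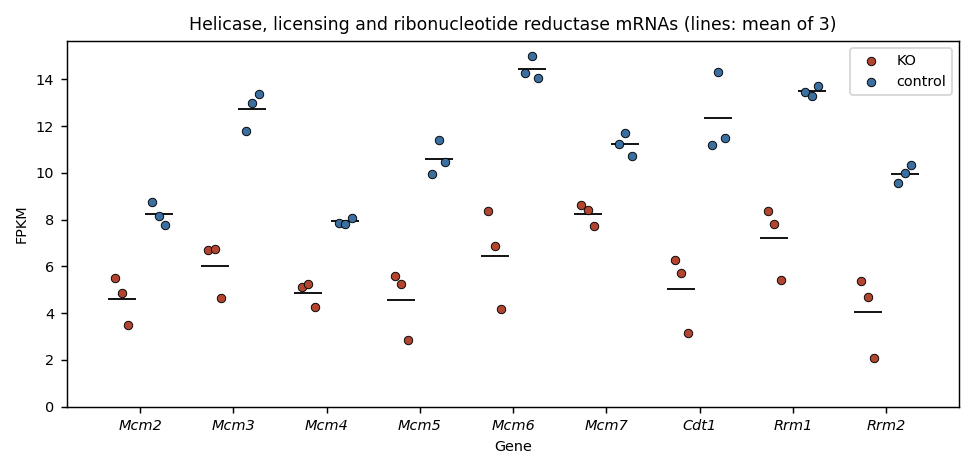
FPKM of the Mcm2-7 ring, Cdt1 and the 2 ribonucleotide reductase genes, with 1 point per sample (KO left of control for each gene) and a line at the mean of 3. KO and control points do not overlap for any of these genes; Mcm7 has the smallest gap.

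The factors that fire a licensed origin moved less. Gins2 and Gins1, subunits of the GINS complex, fell by 0.48 and 0.48 on the log2 scale. Gins2 was at 1.97, 2.12 and 1.70 FPKM in KO samples, against 2.88, 2.57 and 3.21 FPKM in control samples (limma adjusted p = 0.0204); in GENCODE M21, 67.3% of its exonic bases are shared with Gse1 on the other strand, so its value is uncertain. Gins1 was at 4.11, 4.29 and 3.32 FPKM in KO samples, against 4.95, 6.04 and 5.87 FPKM in control samples. Cdc45, their partner in the active helicase (ENSMUSG00000000028, chromosome 16, 18780447 to 18811987, minus strand), was at 3.87, 3.68 and 3.49 FPKM in KO samples, against 3.74, 3.46 and 3.26 FPKM in control samples. Its groups overlapped, and its log2 fold change of 0.07 ± 0.09 was not called (limma adjusted p = 0.575). Cdc45 was the one member with a value above 0.

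Among the genes of strand synthesis, Pcna stood apart by level and by change. Pcna, the sliding clamp (ENSMUSG00000027342, chromosome 2, 132249162 to 132253314, minus strand), was at 59.7, 56.0 and 33.8 FPKM in KO replicates 1, 2 and 3, against 112, 127 and 117 FPKM in control replicates 1, 2 and 3, the highest level of any member. It fell to 41.9% of its control mean, a log2 fold change of −1.29 ± 0.21 (limma adjusted p = 0.00608). The catalytic subunits of the 3 replicative polymerases changed much less: Pold1 (polymerase delta) fell by 0.52 and Pole (polymerase epsilon) by 0.51. Pold1 was at 6.64, 4.51 and 4.15 FPKM in KO samples, against 7.14, 8.22 and 6.93 FPKM in control samples, so that KO replicate 1 came close to the control samples. Its limma adjusted p of 0.0453 was the weakest call among the members, and it lost the call when any 1 sample other than KO replicate 1 was left out (limma adjusted p between 0.0837 and 0.142).

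Pola1, the catalytic subunit of polymerase alpha, which starts each strand (ENSMUSG00000006678, chromosome X, 93304767 to 93632155, minus strand), was at 2.03, 2.13 and 1.27 FPKM in KO samples, against 2.60, 2.55 and 2.64 FPKM in control samples. Its groups did not overlap, yet its log2 fold change of −0.45 ± 0.17 was not called (limma adjusted p = 0.0685). On recovered reads limma-voom did call it (−0.55, adjusted p = 0.0471), and over the other settings its limma adjusted p ran between 0.0547 and 1.00. Lig1, the ligase that seals Okazaki fragments, fell by 0.85, at 5.94, 5.19 and 3.35 FPKM in KO samples against 8.31, 9.46 and 8.90 FPKM in control samples. Fen1 held only 0.0412, 0.0319 and 0.1001 FPKM in KO samples and 0.116, 0.0971 and 0.157 FPKM in control samples, from 2 to 11 reads. In GENCODE M21, 84.2% of the exonic bases of Fen1 are shared with Gm10143 and Tmem258, so these low counts are uncertain and no fold change is given.

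All 4 genes of deoxynucleotide supply fell, with a median log2 fold change of −0.88. Ribonucleotide reductase makes all deoxynucleotides; Rrm1 encodes its large catalytic subunit and Rrm2 its small subunit, which carries a diiron centre. Rrm1 (ENSMUSG00000030978, chromosome 7, 102441695 to 102469771, plus strand) was at 8.36, 7.80 and 5.42 FPKM in KO samples, against 13.4, 13.3 and 13.7 FPKM in control samples (−0.88 ± 0.15, limma adjusted p = 0.00673). Rrm2 (ENSMUSG00000020649, chromosome 12, 24708241 to 24714146, plus strand) was at 5.39, 4.68 and 2.09 FPKM in KO replicates 1, 2 and 3, against 9.57, 10.00 and 10.3 FPKM in control replicates 1, 2 and 3 (−1.28 ± 0.29, limma adjusted p = 0.0142). The control values of Rrm2 lay close together, while KO replicate 3 was far below the other 2 KO samples. Tk1, thymidine kinase, fell by 0.87, and Tyms, thymidylate synthase, by 0.54. Tyms was at 1.81, 2.09 and 1.31 FPKM in KO samples, against 2.54, 2.61 and 2.99 FPKM in control samples (limma adjusted p = 0.0307).

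Of the 3 regulators of S phase, 2 fell. E2f1, an activator of S-phase genes (ENSMUSG00000027490, chromosome 2, 154559407 to 154569892, minus strand), was at 8.92, 8.22 and 7.75 FPKM in KO samples, against 13.2, 13.2 and 13.4 FPKM in control samples. Its samples spread little, so that a log2 fold change of −0.65 ± 0.07 gave the smallest limma adjusted p of any member, 0.00370. Uhrf1, which keeps DNA methylation on copied DNA, fell by 1.09, at 4.09, 3.65 and 2.05 FPKM in KO samples against 7.36, 7.40 and 7 FPKM in control samples. Ccne1, cyclin E1, which drives entry into S phase, was at 2.90, 4.03 and 3.80 FPKM in KO samples, against 3.96, 4.07 and 3.36 FPKM in control samples. The groups of Ccne1 overlapped, and its log2 fold change of −0.08 ± 0.14 was not called (limma adjusted p = 0.657).

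All 22 mitosis genes fell, by between 0.81 and 1.5 on the log2 scale with a median of −1.14, and in all 22 the groups did not overlap. The 4 genes of cyclin A2, cyclins B1 and B2 and Cdk1 had the lowest median of any role, −1.30. Ccnb2, cyclin B2 (ENSMUSG00000032218, chromosome 9, 70407689 to 70421554, minus strand), was at 5.42, 4.82 and 1.72 FPKM in KO replicates 1, 2 and 3, against 11.1, 11.5 and 10.9 FPKM in control replicates 1, 2 and 3. The 3 control values lay within 1 FPKM of each other, and every KO value lay below them, by most in KO replicate 3. Its log2 fold change of −1.5 ± 0.35 was the largest of the 45 tested members (limma adjusted p = 0.0157); by the ratio of mean FPKM Mki67 was lower, at 34.4% of control against 35.7% for Ccnb2.

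Ccnb1, cyclin B1 (ENSMUSG00000041431, chromosome 13, 100778650 to 100786570, minus strand), had the smallest adjusted p of the mitosis genes, 0.00450 in limma, at 3.07, 3.15 and 1.77 FPKM in KO samples against 7.52, 7.16 and 7.36 FPKM in control samples (−1.34 ± 0.19). Cdk1, the kinase that both cyclins B activate (ENSMUSG00000019942, chromosome 10, 69336635 to 69352938, minus strand), was at 3.27, 3.33 and 1.44 FPKM in KO samples, against 6.92, 6.35 and 7.01 FPKM in control samples, and fell by 1.26. Ccna2, cyclin A2, which acts from S phase to early mitosis, was at 3.62, 3.31 and 1.32 FPKM in KO samples, against 6.51, 6.84 and 6.78 FPKM in control samples, and fell by 1.24. For these 4 genes KO tissue held between 35.7% and 41.0% of the control mean.

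The 5 mitotic kinases fell with a median of −1.13. Bub1 and Bub1b, both of the spindle checkpoint, fell by 1.16 and 0.98. Bub1b (ENSMUSG00000040084, chromosome 2, 118598211 to 118641591, plus strand) was at 3.53, 3.16 and 1.91 FPKM in KO samples, against 5.78, 6.17 and 6.06 FPKM in control samples (limma adjusted p = 0.00931). Bub1 was at 1.37, 1.28 and 0.521 FPKM in KO samples, against 3.06, 2.56 and 2.96 FPKM in control samples, the lowest KO value resting on 45 reads. Aurka, the Aurora kinase of spindle poles, and Plk1, the Polo-like kinase, fell by 1.15 and 1.13. Aurkb, the Aurora kinase of the chromosomal passenger complex, moved least, at 4.55, 4.12 and 2.07 FPKM in KO samples against 6.57, 6.40 and 7.498 FPKM in control samples (−0.90 ± 0.25, limma adjusted p = 0.0275).

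The 4 kinesins fell with a median of −1.03 and a narrow spread between genes. Kif11, the motor that pushes spindle poles apart (ENSMUSG00000012443, chromosome 19, 37376403 to 37421859, plus strand), was at 2.18, 2.47 and 1.21 FPKM in KO samples, against 4.55, 4.76 and 4.74 FPKM in control samples (−1.12 ± 0.21, limma adjusted p = 0.00809). Kif20a, which acts in cytokinesis, fell by 1.04, though 29.3% of its exonic bases are shared with Cdc23 on the other strand. Cenpe, the motor at kinetochores, fell by 1.02. Kif23, of the central spindle, fell by 0.90, at 3.15, 3.09 and 1.47 FPKM in KO samples against 4.74, 5.14 and 5.13 FPKM in control samples.

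Of the 9 factors of chromosomes, spindle and mitotic exit, Mki67 changed most. Mki67 encodes Ki-67, which coats mitotic chromosomes and is used to mark cycling cells (ENSMUSG00000031004, chromosome 7, 135689788 to 135716379, minus strand). It was at 3.64, 4.85 and 1.86 FPKM in KO replicates 1, 2 and 3, against 10.1, 10.0 and 10.0 FPKM in control replicates 1, 2 and 3. The control samples were near identical, and the lowest of them was more than double the highest KO sample (−1.49 ± 0.28, limma adjusted p = 0.00818). Top2a, the topoisomerase that untangles chromosomes, and Birc5, survivin of the chromosomal passenger complex, fell by 1.32 and 1.33.

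Cdc20, which activates the anaphase-promoting complex (ENSMUSG00000006398, chromosome 4, 118432901 to 118437352, minus strand), was at 3.97, 3.61 and 2.10 FPKM in KO samples, against 7.55, 7.88 and 8.42 FPKM in control samples (−1.22 ± 0.20, limma adjusted p = 0.00622). Ube2c, the ubiquitin-conjugating enzyme of that complex, fell by 1.07; 22.8% of its exonic bases are shared with Tnnc2. Tpx2 and Nusap1, both microtubule-binding proteins of the spindle, fell by 1.23 and 0.89, and Cenpf, a kinetochore protein at 0.463, 0.599 and 0.306 FPKM in KO samples against 1.39, 1.09 and 1.26 FPKM in control samples, by 0.88. Foxm1, the transcription factor known to activate G2 and mitotic genes (ENSMUSG00000001517, chromosome 6, 128362967 to 128375893, plus strand), had the smallest log2 fold change of the mitosis genes, at 2.47, 1.87 and 1.45 FPKM in KO samples against 3.57, 3.604 and 3.90 FPKM in control samples (−0.81 ± 0.16, limma adjusted p = 0.00993). By the ratio of mean FPKM, Foxm1 (52.3% of control) and Aurkb (52.5%) were about level.

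**Figure D4:**
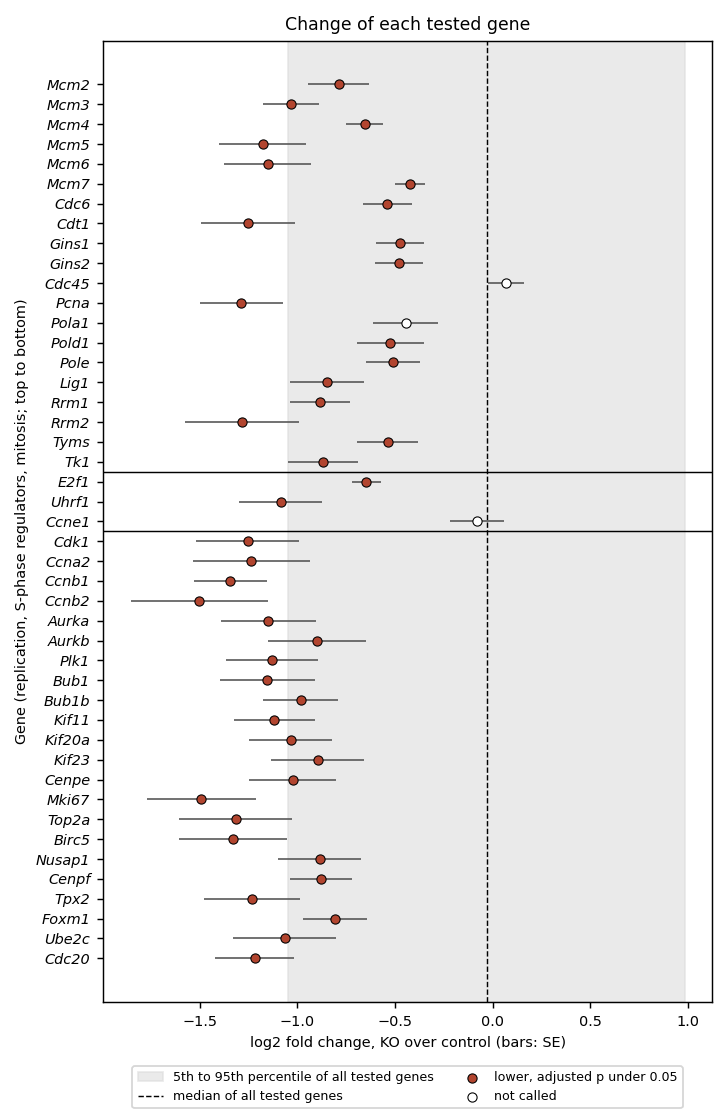
log2 fold change of each of the 45 tested genes, KO over control, with its standard error, filled where the gene fell and open where it was not called. All points but that of Cdc45 lie left of the median of all tested genes (−0.03), the mitosis genes at the bottom further left (median −1.14) than the replication genes at the top (median −0.72).

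Set side by side, mitosis genes were further below control than replication genes. Of 20 tested replication genes 18 fell, with a median log2 fold change of −0.72, and 6 of them by more than 1; of 22 mitosis genes 22 fell, with a median of −1.14, and 16 of them by more than 1. The median replication gene had 55.7% of its control level in KO tissue and the median mitosis gene 41.2%. Within each sample, the mean log2 level of replication genes minus that of mitosis genes was 0.54, 0.48 and 0.89 in KO replicates 1, 2 and 3, against 0.20, 0.28 and 0.20 in control replicates 1, 2 and 3. All 3 KO values were above all control values, and KO replicate 3 was highest. The 2 medians differed by 0.42, and by 0.27 without KO replicate 3. No test of this difference was made, since the members were chosen with results known. The 2 groups ran into each other in size: Pcna, Rrm2, Cdt1, Mcm5, Mcm6 and Mcm3 fell by more than 1, as most mitosis genes did, while Foxm1, Nusap1, Kif23 and Aurkb fell by between 0.81 and 0.90. Cenpf fell by 0.88 on this scale, but the 0.5 added to its low FPKM shrinks that value, and its KO mean was 36.5% of its control mean, close to that of Ccnb1 (36.2%).

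Genes of the same 2 processes outside the member set went the same way but less uniformly. Of 55 tested replication genes that are no members, 31 fell and 2 rose, where 21.6% of all tested genes fell and 21.9% rose. The median of the 55 was −0.44 (all tested genes −0.03). Gmnn, geminin, which holds back Cdt1, was at 7.82, 7.495 and 4.60 FPKM in KO samples, against 14.8, 17.03 and 18 FPKM in control samples, and fell by 1.29. Dnmt1, the maintenance DNA methyltransferase, fell by 0.89, Clspn, claspin of the replication checkpoint, by 1.04, and Chaf1a, of the histone chaperone CAF-1, by 0.76. The 2 that rose were Pole3 (0.32) and Pole4 (0.35), small histone-fold subunits of polymerase epsilon. Singled out after their values were seen, the 6 subunits of the origin recognition complex gave 1 decrease, Orc1 (−0.44), and values between 0.04 and 0.21 for the 5 others, none of them called.

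Of 75 tested mitosis genes that are no members, 59 fell and 1 rose, where 21.6% of all tested genes fell and 21.9% rose. The median of the 75 was −0.87. Ccnf, cyclin F, was at 1.74, 1.86 and 1.28 FPKM in KO samples, against 4.24, 4.55 and 5.22 FPKM in control samples, and fell by 1.29; Ndc80, of the kinetochore, fell by 1.20, Cenpn by 0.66 and Smc4, of condensin, by 0.65. The 1 that rose was Pttg1, securin (0.42), at 10.7, 10.7 and 12.8 FPKM in KO samples against 8.56, 8.14 and 8.29 FPKM in control samples. The decreases numbered 14 among these replication genes and 33 among these mitosis genes with control replicate 2 left out, and 19 and 32 with control replicate 3 left out.

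The D-type cyclins, their kinases Cdk4 and Cdk6, and Myc, which act in G1 upstream of replication, split in direction. All 6 tested genes were called, 4 lower and 2 higher, where 21.6% of all tested genes fell and 21.9% rose. Ccnd1, cyclin D1, fell by 0.95, at 10.8, 11.0 and 8.50 FPKM in KO samples against 21.2, 19.3 and 19.1 FPKM in control samples. Ccnd2, cyclin D2, rose by 0.95, at 61.6, 74.8 and 77.1 FPKM in KO samples against 40.4, 33.1 and 36.0 FPKM in control samples. Cdk6 fell most, by 1.54, at 1.12, 2.47 and 0.795 FPKM in KO samples against 5.13, 4.50 and 4.90 FPKM in control samples, and Cdk4 fell by 0.52. Ccnd3, cyclin D3, rose by 0.54, and Myc, a transcription factor that promotes growth, fell by 0.78.

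Of 19 tested E2F, pocket protein and DREAM regulators, 8 fell and 2 rose, where 21.6% of all tested genes fell and 21.9% rose. Rbl1, the pocket protein p107, fell by 0.65, Mybl2 (B-Myb) by 0.62, and the E2F repressors E2f5 and E2f4 by 0.45 and 0.37; Rb1 and Lin52 were the 2 that rose, by 0.45 and 0.67. With control replicate 1, 2 or 3 left out, 4, 2 and 1 of the 19 fell, in that order, and with control replicate 2 or 3 left out none rose. Of 19 Cdk inhibitors and growth arrest genes, 6 rose, 3 fell and 10 were not called. The shares over all tested genes were 21.9% higher and 21.6% lower. The median log2 fold change of the 19 was −0.07, and 12 of them had values below 0. Ccng1, cyclin G1, a target of p53, rose by 1.10, at 103, 115 and 125 FPKM in KO samples against 56.2, 49.7 and 53.5 FPKM in control samples. Tob1, an antiproliferative protein, rose by 1.34, Cdkn2c, the Cdk4 and Cdk6 inhibitor p18, by 0.83, and Btg2 by 0.46. The 3 that fell, Cdkn1c, Mdm2 and Gadd45b, were 5 genes without KO replicate 1.

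Several replication enzymes carry iron or an iron-sulfur cluster, and 14 such DNA enzymes were measured. Of these, 5 of 14 fell, where 21.6% of all tested genes did (the 5 were the members Rrm2, Pold1 and Pole, and also Prim2 and Dna2), and 2 rose, the repair glycosylase Nthl1 and the p53-inducible reductase subunit Rrm2b. Prim2, the large primase subunit, was at 3.69, 3.85 and 3.25 FPKM in KO samples, against 4.90, 5.68 and 5.14 FPKM in control samples, and fell by 0.49; Dna2, a nuclease-helicase, fell by 0.71. Nthl1 rose by 0.42 and Rrm2b by 0.34. The median of the 14 was −0.36, and that of the 10 which are no members −0.13. Without KO replicate 2 or control replicate 1 the decreases numbered 3, and without control replicate 2 or 3 there was 1. Of the 10 which are no members, 2 fell and 2 rose. Those shares are near the 21.6% and 21.9% of all tested genes, so they are no result about these 10 genes. Of 9 genes of cytosolic iron-sulfur assembly, which supplies such clusters, 2 fell: Fam96a by 0.79 and Narfl by 0.33; 1 fell where control replicate 2 or 3 was left out. That share is near the 21.6% of all tested genes that fell, so the count is no result about these genes.

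Nucleotide supply outside the members moved little. Of 24 genes, 4 fell (among them Dck, Samhd1 and Nme1) and 2 rose (Ctps and Rrm2b), and the median was −0.01. Dck, which salvages deoxycytidine, fell by 0.74, and Samhd1, which breaks down deoxynucleotides, by 0.77, while Ctps, CTP synthase, rose by 0.35. Of the other 18 genes none passed the test, and both shares lay below those of all tested genes (21.6% lower, 21.9% higher). Leaving out any 1 sample left 1 to 3 of the 4 decreases in number and 0 to 1 of the 2 increases.

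Markers of several cell types moved with the groups. Of 20 macrophage markers 15 fell and none rose, where 21.6% of all tested genes fell and 21.9% rose. The log2 fold changes of the 20 ran from −1.90 to 0.45, and 17 were below 0. Their mean log2 level was 5.71, 5.52 and 4.66 in KO replicates 1, 2 and 3, against 6.30, 6.36 and 6.33 in control samples. The sum of their FPKM ranged from 1662 to 3829 in KO samples and from 6954 to 8088 in control samples, and no marker was listed at 0. Itgam was at 45.3, 36.0 and 17.2 FPKM in KO samples, against 91.4, 117 and 116 FPKM in control samples, and fell by 1.80; Msr1 fell by 1.90, Mrc1 by 1.30 and Aif1 by 0.95. Cd163, Lyve1, Timd4, Cx3cr1 and Fcgr1 were the 5 not called. By mean log2 level KO replicate 3, lowest in the members, was also lowest in the macrophage, the progenitor and fibroblast, and the mast cell and granulocyte markers. For T, B and NK cell markers KO replicate 2 was lowest. Without control replicate 2, 6 of the 20 fell, and without control replicate 3, 9 did.

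Of 16 mature adipocyte markers 15 rose, where 21.9% of all tested genes did. The sum of their FPKM ranged from 21822 to 29857 in KO samples and from 9168 to 12762 in control samples, highest in KO replicate 3. None of these markers was listed at 0. Adipoq, which encodes the adipocyte hormone adiponectin, was at 1249, 1268 and 1875 FPKM in KO samples, against 499, 329 and 326 FPKM in control samples, and rose by 1.93; Cidec, a lipid droplet protein, rose by 1.47. All 10 endothelial markers rose (summed FPKM 216 to 327 in KO and 108 to 122 in control samples), and 7 of 8 mesothelial markers did (118 to 142 in KO and 75.3 to 78.5 in control samples). The endothelial genes Egfl7 and Tek rose by 1.35 and 0.85, and the mesothelial genes Msln and Upk3b by 0.75 and 0.80. Of 12 progenitor and fibroblast markers 4 fell, where 21.6% of all tested genes did. Their list summed to 1388 to 2303 FPKM in KO and 2681 to 3030 FPKM in control samples. The mean log2 level of that list was 6.35, 6.24 and 5.71 in KO samples, against 6.46, 6.56 and 6.57 in control samples. The 4 were Thy1, Fbn1 and the collagens Col3a1 and Col1a1, which fell by between 0.71 (Fbn1) and 0.96 (Col3a1) on the log2 scale. Leaving out any 1 control sample brought that count to 1, and leaving out KO replicate 2 to 2. Of 16 tested T, B and NK cell markers 3 fell, a share below the 21.6% of all tested genes that fell. All 16 had log2 fold changes below 0, with a median of −0.55, and 8 fell without KO replicate 1. Their list summed to 12.3 to 24.8 FPKM in KO and 26.3 to 35.8 FPKM in control samples. Of 8 tested mast cell and granulocyte markers 5 fell, and 3 did without control replicate 2 or 3; that list summed to 41.9 to 79.1 FPKM in KO and 121 to 212 FPKM in control samples. Of 11 germ cell and epididymal markers 10 were below the filter, and Sycp3 was not called. The part of these markers in the lower level of the members was not tested.

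**Figure D5:**
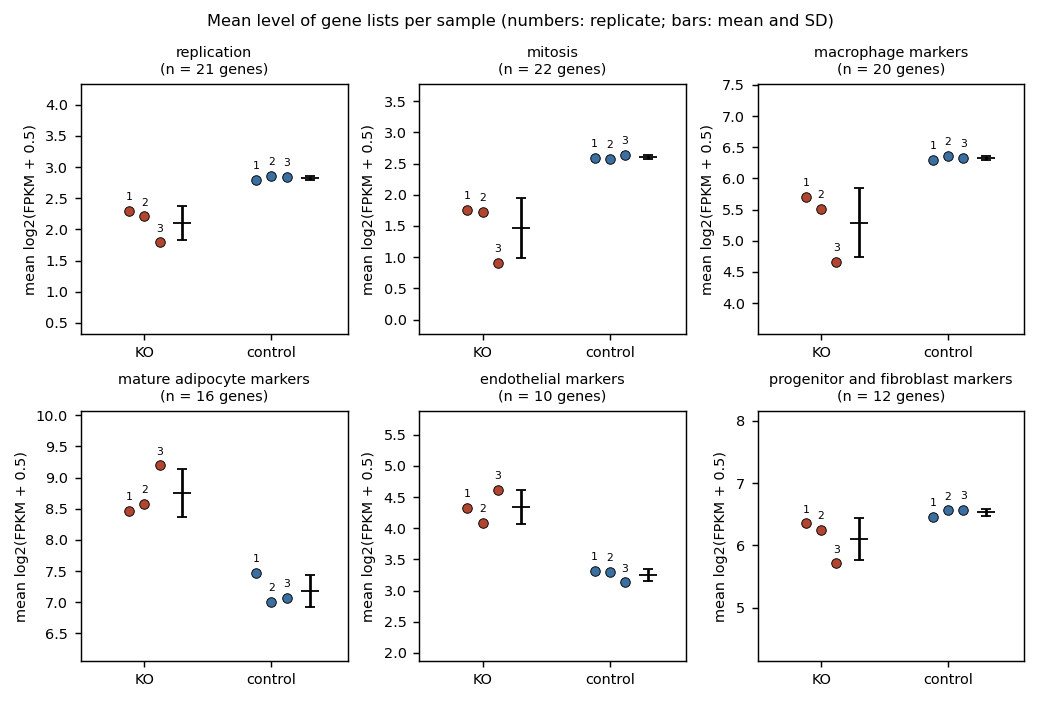
Mean log2(FPKM + 0.5) of the replication genes, the mitosis genes and 4 lists of cell type markers in each sample, with replicate numbers beside the points and bars for the mean and SD of 3; every panel spans the same number of log2 units. KO replicate 3 is the lowest sample for replication and mitosis genes and for macrophage and progenitor and fibroblast markers. It is the highest for mature adipocyte and endothelial markers.

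The level of the members can be read relative to a marker list within the same sample. The lists used were macrophage, progenitor and fibroblast, and T, B and NK cell markers, whose mean levels were all lower in KO samples. Mast cell and granulocyte markers, whose mean log2 level was also lower (1.26 in KO against 1.95 in control samples), were not used. Endothelial markers, of a cell type also known to divide in fat, were not used. Their mean log2 level was higher in KO samples (4.34 against 3.25 in control samples). The mean log2 level of the mitosis genes minus that of the macrophage markers was −3.94, −3.79 and −3.75 in KO replicates 1, 2 and 3, against −3.71, −3.79 and −3.70 in control replicates 1, 2 and 3. These KO and control values overlapped. For the replication genes the same quantity was −3.41, −3.31 and −2.86 in KO samples, against −3.51, −3.51 and −3.49 in control samples, so that relative to macrophage markers every KO sample was above every control sample. Relative to the progenitor and fibroblast markers the mitosis genes were at −4.59, −4.52 and −4.81 in KO samples, against −3.87, −3.99 and −3.93 in control samples, all KO values below. The replication genes were at −4.05, −4.04 and −3.92 in KO samples, against −3.67, −3.71 and −3.73 in control samples on that measure, again all KO values below. Relative to the T, B and NK cell markers, KO and control values overlapped for both groups of genes. These differences were computed after the data had been seen and carry no test. They were taken only with 0.5 added to FPKM, which understates changes of low genes. Whether they reflect cell numbers or mRNA per cell was not tested.

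Of 13 tested genes of macrophage growth signals, 8 fell and 1 rose, where 21.6% of all tested genes fell and 21.9% rose. Csf1r, 1 of the 8, is also in the macrophage marker list. Spp1, osteopontin, known to promote macrophage proliferation in obese fat, was at 48.8, 28.5 and 8.96 FPKM in KO replicates 1, 2 and 3, against 205, 133 and 164 FPKM in control replicates 1, 2 and 3, and fell by 2.79. The chemokine Ccl2 fell by 1.78, and Csf2rb, a cytokine receptor subunit, by 0.63. Il34, a ligand of the macrophage receptor Csf1r, rose by 0.70, at 11.9, 10.1 and 10.7 FPKM in KO samples against 6.36, 6.52 and 6.61 FPKM in control samples. Csf1, the other ligand of that receptor, was at 23.6, 20.4 and 18.8 FPKM in KO samples, against 18.8, 21.6 and 20.02 FPKM in control samples, and was not called (0.05). With control replicate 1, 2 or 3 left out, 5, 2 and 3 of the 13 fell, in that order.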

How the data were processed

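Per the labels' protocols, RNA of 3 KO and 3 control samples went into NEBNext Ultra libraries. The submitters' processing notes name CASAVA, FastQC, STAR 2.5, HTSeq 0.6.1 and the build mm10; annotation release, filters and strand setting were not given there. The authors deposited FPKM per gene, per the file headers. The other numeric column the authors deposited, the gene length in bases, is no measure of expression. The products of FPKM and length (kb) of each sample added up to 1000000, and 100% of values were whole reads within 0.01 of a read, which gave back reads and depth. Floors cover counting error only. Replicates differed by more than counting noise (chi-square per degree of freedom 16.7 to 107), so each library counted once.

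Values were fitted as log2(FPKM + 0.5) with limma 3.58.1 under R 4.3.3, using trend and robust moderation (statmod 1.5.0), after a filter of 0.5 FPKM in 3 samples, a plan made for FPKM; edgeR and DESeq2, listed for a table of counts, were not run. The procedure was run on simulated reads with 200 changed genes and the same dispersion for every gene and sample. The replicates here spread unevenly and many more genes were called, so that run does not show how the procedure performs on these data. Alternatives were pseudocounts of 0.1 and 1, the replicate number as a block, a filter at 1 FPKM, no filter, median-of-ratios scaling, limma-voom on the recovered reads and each sample left out in turn; limma treat and leaving out KO replicate 3 with control replicate 2 were added after seeing the data. Tables used Python 3.11.15, numpy 2.4.6, pandas 2.3.3 and matplotlib 3.10.9.

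The members and the 17 other lists were chosen with earlier results of these data known. Named are Tfrc, all members (in each role those of smallest p, largest and smallest change, and all not called, by sample), and up to 4 called genes of smallest p from each other list; further names were chosen after seeing values, and 1 gene of the lists is not reported here. Members were found by symbol; of the 386 symbols of members and lists, 5 were matched by identifier. Promoters are RefSeq's.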

Additional observations from a re-analysis of the deposited data

How the results depend on the processing

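Of the members, 42 fell under both other pseudocounts, the filter at 1 FPKM and median-of-ratios scaling, 39 without a filter, 43 with limma-voom and 37 without KO replicate 3 and control replicate 2. Deviations from the group mean correlated between same-numbered samples by −0.24, 0.03 and −0.18. With 3 samples per group these values cannot exclude a pairing. With the replicate number as a block 37 members fell (13 replication, 22 mitosis genes) and 4581 genes were called. Leaving out each sample in turn gave 29 to 41 members lower, 11 to 17 replication and 16 to 22 mitosis genes lower, and 3371 to 5958 of all genes called, with medians of −0.81 to −0.60 for replication and −1.30 to −0.86 for mitosis genes. With limma treat at 1.5-fold 0 members, 0 replication and 0 mitosis genes were called lower, and 56 of all genes were called. No member was called higher in any setting. With each sample left out Ccne1 ranged between −0.16 and 0.044, turning positive without KO replicate 1 (limma adjusted p = 0.791), and was not called in any setting; the cause was not tested. Of the lists, treat called 1 mature adipocyte marker higher and no gene of the other lists. With 45 to 5250 reads per tested member and sample, depth limits Fen1 (2 to 11 reads) most.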
